A study of Mus musculus with 12 samples.

Results

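The MAPK feedback genes are transcripts that the mitogen-activated protein kinase (MAPK) cascades switch on and whose products then dampen the same cascades. Here they are 10 genes chosen by name, namely Dusp1, Dusp4, Dusp5, Dusp6 and Dusp10 of the dual-specificity phosphatases, Spry1, Spry2 and Spry4 of the Sprouty family, and Spred1 and Spred2 of the Spred family. Of the 10, 9 had a probe set of their own, among 17097 genes so measured, and Dusp5 is not reported because no probe set carried its name alone. The 9 genes had 22 probe sets, and in each tissue the one with the highest mean stood for the gene.

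The arrays came from C57BL/6 mice of a study of mothers that lack Abcb11, the pump that exports bile acids from hepatocytes into bile. In the lung, 1 array each was made at embryonic day 17.5 (E17.5), E18.5 and the day of birth (PN0) from Abcb11+/- offspring of an Abcb11-/- mother mated with a WT male, and 1 each from Abcb11+/- offspring of a WT mother mated with an Abcb11-/- male. All lung donors were thus heterozygous, and both parents' genotypes differed between the crosses. In the liver, 3 arrays came from Abcb11-/- females and 3 from WT females, all 1.5 months old. The knockout is present in every cell, RNA came from unsorted tissue, and the number of animals on each lung array is not stated. A legend that names real-time PCR has 3 animals per group at E18.5 and PN0. The methods, which name neonatal lungs, state that the array RNA also served for real-time PCR. Whether animals were pooled on an array is not stated.

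The labels were checked first. Abcb11 in the liver was at log2 signals of 2.90, 3.14 and 3.26 on the Abcb11-/- arrays, against 11.22, 11.04 and 10.88 on the WT arrays. The summed signal of 9 hepatocyte markers was 91487 to 97334 in Abcb11-/- livers and 94736 to 97594 in WT livers, and that of 7 lung epithelium markers was 16754 to 29621 on the lung arrays. One array stood apart, that of the Abcb11-/- mother at E17.5, with all 9 hepatocyte markers and all 8 skeletal muscle markers at least 1.5-fold above the E17.5 array of the WT mother. Its summed hepatocyte signal was 20957, against 1150 for the WT mother. Other markers were at least 1.5-fold higher on the WT mother's E17.5 array, for heart muscle 5 of 7 and for smooth muscle 4 of 5. None of these was that much lower there. The array of the Abcb11-/- mother enters the E17.5 values and the models and correlations over all 6 lung arrays. The model's Dusp6 and Spry4 values and the correlations are also given without it.

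Growth factors that bind receptor tyrosine kinases activate Ras, Raf and MEK in turn and so the kinase ERK, while stress signals run through the related kinases JNK and p38. The dual-specificity phosphatases end the signal by removing phosphate from the kinases themselves, and Sprouty and Spred proteins act higher up, between the receptor and Raf. In the fetal lung, Sprouty proteins restrain fibroblast growth factor signalling during the branching of the airways.

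The promoters of Dusp1 and Spry1 are shown because both transcripts were higher at PN0 than at E18.5 but stood on opposite sides of the comparison by mother, as given below. RefSeq sequence for build GRCm38.p6 was at hand for 8 of the 10 genes. The 250 bases before the annotated start are printed 5′ to 3′ along the gene, with capitals at matches, on either strand, to the motifs searched.
Dusp1: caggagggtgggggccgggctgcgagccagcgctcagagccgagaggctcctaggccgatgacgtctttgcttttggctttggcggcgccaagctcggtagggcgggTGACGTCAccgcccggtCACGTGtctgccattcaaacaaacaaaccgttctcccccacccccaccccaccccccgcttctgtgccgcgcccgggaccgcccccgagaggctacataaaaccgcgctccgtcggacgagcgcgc
Spry1: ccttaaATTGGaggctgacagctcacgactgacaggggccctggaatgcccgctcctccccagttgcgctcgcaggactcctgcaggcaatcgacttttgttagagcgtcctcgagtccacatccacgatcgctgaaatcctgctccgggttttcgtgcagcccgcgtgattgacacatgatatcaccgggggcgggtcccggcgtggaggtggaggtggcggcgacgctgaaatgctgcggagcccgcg
The Dusp1 stretch lies at chr17:26508473-26508722 on the minus strand and the Spry1 stretch at chr3:37639697-37639946 on the plus strand. The motifs were the cAMP response element TGACGTCA (1.55% of 32851 promoters in the same window), the AP-1 site TGANTCA (6.75%), the E-box CACGTG (6.02%), the EGR site GCGTGGGCG (0.536%), the CCAAT box CCAAT (33.8%) and the CArG box, which serum response factor binds (1.47%). Dusp1 held 1 cAMP response element, 143 to 136 bases before the start, and 1 E-box, 126 to 121 bases before it. Spry1 held 1 CCAAT box, read on the opposite strand, 244 to 240 bases before the start, and none of the others. Dusp5, which has no array value here, held 2 CArG boxes at 82 to 73 and 72 to 63 bases before its start. No AP-1 or EGR letters were found in the windows of the 8 genes. A match of letters is not a binding site, and binding was not measured.

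In the PN0 lung, 3 of the feedback genes stood 1.5-fold or more above the WT mother's array on the array of the Abcb11-/- mother, and none stood that far below it. They were Dusp4, with a log2 difference of 1.00, Dusp1, at 0.97, and Spry4, at 0.63. Across 7386 genes whose brighter PN0 array reached a log2 signal of 6, 4.39% lay above the 1.5-fold line and 3.15% below it. Of the feedback genes, 8 reached that brightness. With 1 array for each mother at each stage, these differences have no replicate check and carry no p-value.

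Dusp1 encodes a nuclear phosphatase, made within minutes of stimulation, that acts on p38, JNK and ERK. Its log2 signal with an Abcb11-/- mother was 9.46 at E17.5, 9.78 at E18.5 and 12.32 at PN0, against 9.44, 10.01 and 11.34 with a WT mother at the same stages. Fetal lungs of both crosses thus lay close together, and the PN0 arrays stood above all 4 fetal arrays. The step between E18.5 and PN0 was 2.54 on the log2 scale, or 5.81-fold, with an Abcb11-/- mother and 1.33, or 2.52-fold, with a WT mother.

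Dusp4 encodes another inducible phosphatase of the nucleus that prefers ERK and JNK. It stood at 5.07, 4.85 and 6.28 at E17.5, E18.5 and PN0 with an Abcb11-/- mother and at 4.68, 5.01 and 5.29 with a WT mother. It passed the brightness minimum only through the PN0 array of the Abcb11-/- mother, so its place in the count rests on that array. Its step at birth was 1.43 with an Abcb11-/- mother and 0.28 with a WT mother.

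Dusp6 encodes the cytoplasmic phosphatase specific for ERK, a widely used readout of fibroblast growth factor signalling. Its log2 signals were 9.95, 10.37 and 10.44 with an Abcb11-/- mother, against 9.90, 9.62 and 10.02 with a WT mother. The gap was widest at E18.5, with differences of 0.05 at E17.5, 0.75 (1.69-fold) at E18.5 and 0.42 at PN0. Dusp6 was the one feedback gene at least 1.5-fold apart at E18.5, of 7 bright enough, where 1.24% of 7489 genes were that much higher and 0.734% that much lower. At E17.5 none of 7 was, with 3.47% of 7627 genes higher and 3.8% lower, on an array that carried the foreign markers described above.

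Dusp10, whose product acts on JNK and p38, stayed below the brightness minimum in the lung. It was at 4.57, 4.61 and 5.15 with an Abcb11-/- mother and at 4.05, 4.46 and 5.02 with a WT mother. The PN0 arrays were the highest of each cross, and the 2 crosses were 0.13 apart at PN0.

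**Figure D1:**
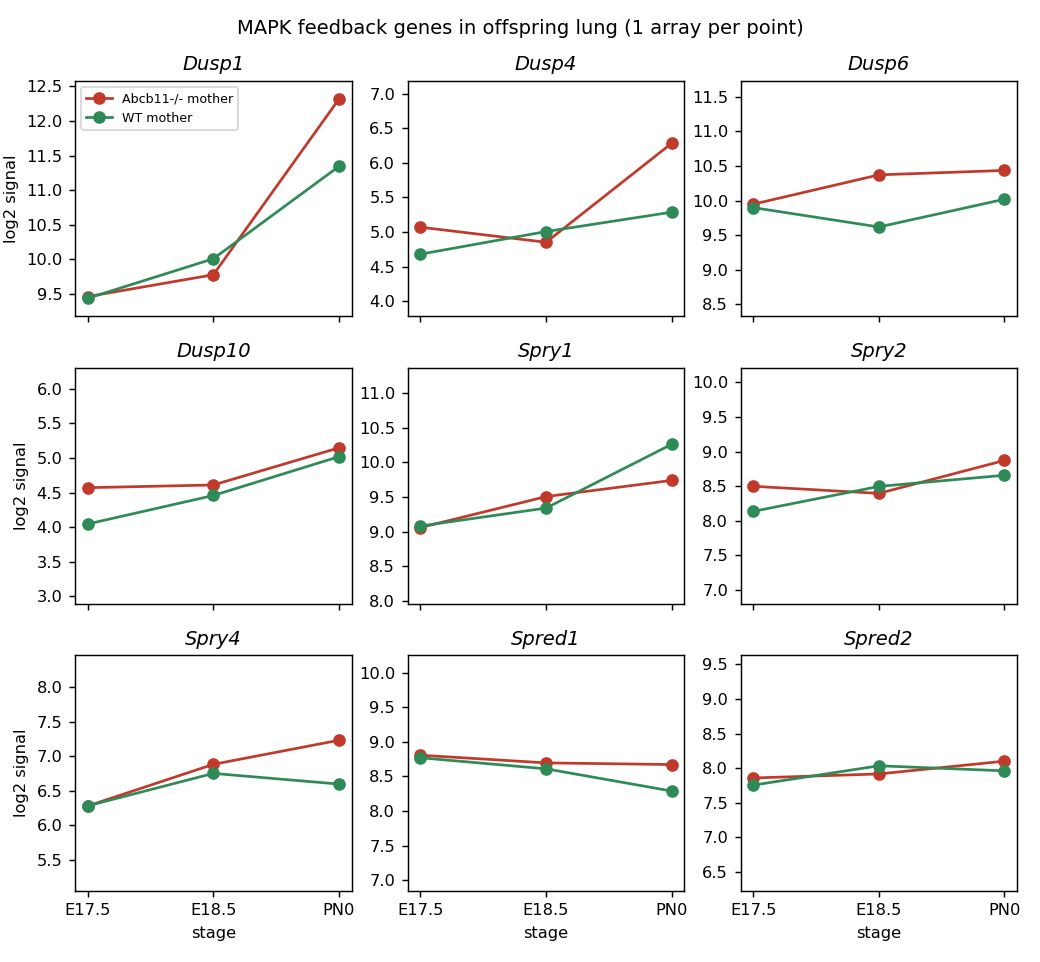
Log2 signal (y axis, every panel spanning the same height) of the 9 measured MAPK feedback genes in offspring lung by stage (x axis, E17.5, E18.5 and PN0), with 1 array per point, red for an Abcb11-/- mother and green for a WT mother. Dusp1 and Dusp4 separate by mother at PN0, at 12.32 and 6.28 with an Abcb11-/- mother against 11.34 and 5.29 with a WT mother, while Spry1 is at 9.74 with an Abcb11-/- mother and 10.26 with a WT mother.

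Spry1 went against the phosphatases at PN0. Its product binds adaptors and holds back the activation of Ras and Raf. It stood at 9.06, 9.51 and 9.74 at E17.5, E18.5 and PN0 with an Abcb11-/- mother, against 9.08, 9.34 and 10.26 with a WT mother. The difference at PN0 was -0.52, just under 1.5-fold. The birth step was 0.23 with an Abcb11-/- mother and 0.92, or 1.90-fold, with a WT mother.

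Spry4, an inhibitor of growth factor receptor signalling like Spry1, was at 6.28, 6.88 and 7.23 with an Abcb11-/- mother and at 6.28, 6.75 and 6.60 with a WT mother. The crosses were level at E17.5 and 1.55-fold apart at PN0. Its other 3 probe sets, all dimmer, were also higher at PN0 with an Abcb11-/- mother, by 1.32, 0.53 and 0.32. Spry2, the Sprouty gene best known from airway branching, was at 8.50, 8.40 and 8.87 with an Abcb11-/- mother, against 8.14, 8.50 and 8.66 with a WT mother. Its differences of 0.36, -0.10 and 0.21 by stage had no common sign, and its dimmer probe set was 0.71 higher at E18.5 and -0.08 at PN0.

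Spred1 and Spred2 encode membrane-bound proteins that carry a Sprouty domain. Spred1 recruits neurofibromin, which switches Ras off. Spred1 was at 8.81, 8.70 and 8.67 with an Abcb11-/- mother and at 8.77, 8.61 and 8.29 with a WT mother, a difference of 0.38 at PN0. Its other 4 probe sets differed by -0.22 to 0.18 at PN0, so that difference did not extend to them. Spred2 varied least of all the feedback genes in the lung, with a range of 0.35 over the 6 arrays. It was at 7.86, 7.92 and 8.10 with an Abcb11-/- mother and at 7.76, 8.03 and 7.96 with a WT mother.

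**Figure D2:**
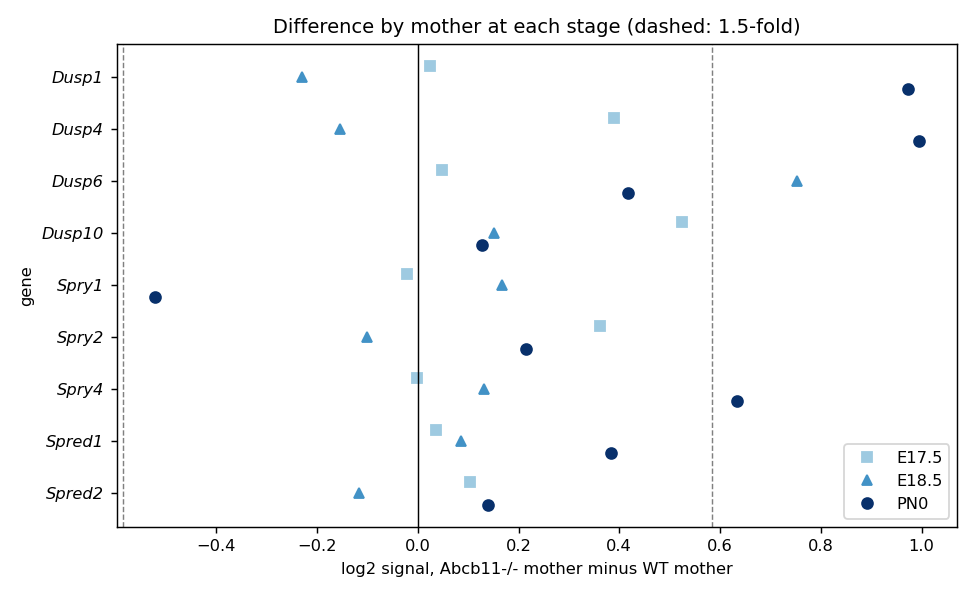
Difference in log2 signal, Abcb11-/- mother minus WT mother (x axis), for each measured gene (y axis) at E17.5 (squares), E18.5 (triangles) and PN0 (circles), from 1 array per mother and stage, with dashed lines at 1.5-fold. Dusp4, Dusp1 and Spry4 lie past the line at PN0 and Dusp6 at E18.5, and Spry1 at -0.52 is the only gene below 0 at PN0.

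Counting any size of difference, the Abcb11-/- mother's array was the higher for 7 of the 9 measured genes at E17.5, for 5 at E18.5 and for 8 at PN0. The median difference of the 9 was 0.05 at E17.5, 0.09 at E18.5 and 0.38 at PN0. Over all 17097 genes it was -0.03, 0.01 and 0.01 at these stages. The share of all genes with a positive difference was not counted. The E17.5 values include the array with hepatocyte and skeletal muscle markers. The step at birth was tallied within each cross, and it shares its PN0 arrays with the differences by mother. With an Abcb11-/- mother, 2 of 8 genes bright enough were at least 1.5-fold higher at PN0 than at E18.5 (Dusp1 and Dusp4), where 3.4% of 7519 genes were that much higher and 3.27% that much lower. Dusp4 entered this count only through the PN0 array on which it was high, and at a brightness minimum of 7 the count was 1 of 7. With a WT mother, 2 of 7 genes bright enough were that much higher (Dusp1 and Spry1), where 6.97% of 7501 genes were higher and 7.96% lower. No feedback gene was 1.5-fold lower at PN0 than at E18.5 in either cross. Cell markers moved in the same step. Of the neutrophil markers, 4 of 5 bright enough were at least 1.5-fold higher at PN0 and 1 lower with an Abcb11-/- mother (summed signal 3136 at PN0, against 2013 at E18.5), and 6 of 7 were higher with a WT mother (4672 at PN0, against 1202 at E18.5). Cell cycle markers were lower at PN0 for 2 of 6 with an Abcb11-/- mother and 5 of 5 with a WT mother, heart muscle markers for 0 of 6 and 5 of 6, and hepatocyte markers for 2 of 2 in both crosses. The part of these markers in the step was not tested.

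A limma model of stage and mother was fitted over the 6 lung arrays. Its error, with 2 residual degrees of freedom, is how the difference by mother varied between stages. A difference by mother at 1 stage alone therefore adds to that error. The model called none of the 9 genes at an adjusted p under 0.05 for the mother. It called 0.0% of all genes for the mother, 0.0% for PN0 over E18.5 and 0.0585% for E18.5 over E17.5. Dusp1 was 1.94 ± 0.29 (SE) higher at PN0 than at E18.5 over both crosses, with a limma adjusted p of 0.15. At an unadjusted p under 0.05 the model had 4 feedback genes for that step (Dusp1, Dusp4, Dusp10 and Spry1), where 12.3% of all genes passed. For the mother it had 1 (Dusp6), with a difference of 0.41 ± 0.16 (SE) and a limma adjusted p of 0.93, where 5.07% passed. Without the E17.5 arrays the Dusp6 difference was 0.59 ± 0.16 (SE), with a limma adjusted p of 0.74. For E18.5 over E17.5 it had 1 (Spry4), at 0.54 ± 0.19 (SE) and a limma adjusted p of 0.34, and on the WT mother's arrays alone that step was 0.47. A limma test of whether the difference by mother at PN0 departed from that before birth has 1 residual degree of freedom and called 0.0% of genes, with 2 feedback genes (Dusp1 and Dusp4) at an unadjusted p under 0.05, where 5.0% of genes passed. With a trended and robust prior, under which 0.164% of all genes passed that test, Dusp1 did so at a limma adjusted p of 0.034. Leaving out the E17.5 array that stood apart leaves this test no residual degrees of freedom.

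Markers of other cells also differed between the PN0 arrays, where 4.39% of all genes bright enough were at least 1.5-fold higher and 3.15% lower. Of 6 bright heart muscle markers 4 passed 1.5-fold upwards with an Abcb11-/- mother, with a summed signal over the 7 measured of 2466, against 1652 with a WT mother. Of 7 bright neutrophil markers 5 were at least 1.5-fold lower, with summed signals over the 8 measured of 3136 with an Abcb11-/- mother and 4672 with a WT mother. Of 7 bright fibroblast markers 2 were at least 1.5-fold higher, Lum by 2.35 and Dcn by 1.37 on the log2 scale, with summed signals over the 8 measured of 12176 with an Abcb11-/- mother and 9671 with a WT mother. The part of these markers in the feedback gene values was not tested. In unsorted tissue, fewer cells of a type and less RNA per cell cannot be told apart.

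Among transcripts that ERK signalling induces, 7 of 14 bright enough exceeded the WT mother's PN0 value by 1.5-fold or more where the mother was Abcb11-/-, and none was that much lower. Over all genes bright enough at PN0, 4.39% were that much higher and 3.15% that much lower. Egr1, an immediate-early transcription factor, was at 7.12 at E18.5 and 10.67 at PN0 with an Abcb11-/- mother, against 6.49 and 7.36 with a WT mother. Nr4a1, an inducible nuclear receptor, was at 10.67 at PN0 with an Abcb11-/- mother, against 7.86 with a WT mother. Fos, a subunit of AP-1, was at 11.07 with an Abcb11-/- mother and 9.28 with a WT mother. Maff, a small MAF transcription factor, was at 9.18 with an Abcb11-/- mother and 8.16 with a WT mother. Among genes of the cascade that reached the brightness minimum at PN0, none was 1.5-fold apart of 7 other MAPK phosphatases and dual-specificity phosphatases (11 measured), 10 other inhibitors of receptor and Ras signalling (15 measured), 16 ERK cascade kinases and adaptors (21 measured) and 16 JNK and p38 cascade kinases (20 measured). Dusp2, an inducible nuclear phosphatase below the minimum and named here after its values were seen, was at 4.78 with an Abcb11-/- mother and 3.73 with a WT mother. It was not the only listed gene below the minimum to differ by 1.5-fold or more at PN0. Of 20 bright receptors and ligands, Fgfr4, a fibroblast growth factor receptor, was at 7.48 with an Abcb11-/- mother and 6.75 with a WT mother. Fgf18, a ligand of that family, was at 6.33 with an Abcb11-/- mother and 6.98 with a WT mother. At E18.5 the log2 difference by mother was already -0.58 for Fgf18, and 0.001 for Fgfr4. These lists have 1 array per mother, like the feedback genes.

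The genes whose pattern over the 6 lung arrays was most like each feedback gene were sought among 1572 genes (1573 for Dusp10) that ranged over at least 1 on the log2 scale and reached 6. For Dusp1 they were Gm13889 (Pearson r 0.992, Spearman rho 0.943), Csrnp1 (0.991 and 0.943), a nuclear protein induced early after stimulation, and Fos (0.991 and 1). For Dusp4 they were Ier2 (r 0.988, rho 0.829), an immediate-early gene, Gadd45a (0.970 and 1), a growth arrest gene induced by stress, and Nr4a2 (0.962 and 0.657), an inducible nuclear receptor. Spry1 had Mpv17l2 (r 0.995, rho 1), Eppk1 (0.992 and 1), which encodes the linker protein epiplakin, and Gas2l1 (0.992 and 0.943), whose product links actin and microtubules. Dusp10 had Trpt1 (r 0.987, rho 0.943), Sowahb (0.973 and 0.771) and Baiap2l1 (0.969 and 0.771). Without the E17.5 array that stood apart, an alternative chosen after seeing the data, r over the 5 remaining arrays was 0.989 to 0.996 for the Dusp1 partners, 0.973 to 0.998 for Dusp4, 0.993 to 0.996 for Spry1 and 0.969 to 0.987 for Dusp10. All pairs share the same arrays and the order of stages, and the coefficients are a description of these arrays.

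In the liver, 2 of the 9 feedback genes passed the test, in opposite directions. Dusp10 rose 1.80-fold in Abcb11-/- livers and Spry4 fell 2.48-fold. Both were dim, with mean liver log2 signals of 4.82 for Dusp10 and 4.265 for Spry4. Under a minimum mean of 6 neither gene was tested. Limma called 4.33% of 17097 genes higher and 2.91% lower in Abcb11-/- livers at an adjusted p under 0.05. The median log2 fold change of the 9 genes was -0.06, against 0.00 over all genes. At an unadjusted p under 0.05, limma had 7 of the 9, where 21.6% of all genes passed, with Dusp1, Dusp10 and Spry1 higher and Dusp6, Spry4, Spred1 and Spred2 lower. Groups that did not overlap were found for 2 feedback genes higher in Abcb11-/- livers (Dusp10 and Spry1), where 13.8% of all genes did so, and for 3 lower (Spry4, Spred1 and Spred2), where 12.1% did.

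Spry4 was at 3.43, 3.92 and 3.48 in Abcb11-/- livers, against 4.79, 4.68 and 5.29 in WT livers. Every Abcb11-/- array lay below every WT array. The Abcb11-/- values were not far above the liver array medians of 3.15 to 3.18. The log2 fold change was -1.31 ± 0.19 (SE), with a limma adjusted p of 0.0085. Its other 3 probe sets had mean signals of 2.90 to 3.13 and log2 fold changes of -0.28, -0.09 and -0.20, none of which passed.

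Dusp10 was at 5.33, 4.98 and 5.42 in Abcb11-/- livers and at 4.53, 4.47 and 4.19 in WT livers, again without overlap. The log2 fold change was 0.85 ± 0.15 (SE), with a limma adjusted p of 0.015. The limma adjusted p was 0.059 without WT replicate 2, 0.059 without WT replicate 3 and 0.054 without Abcb11-/- replicate 3, with log2 fold changes of 0.88, 0.74 and 0.76. Its dimmer probe set, with a mean of 2.73, differed by -0.02.

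Dusp1 had the largest fold change of the 9 genes in the liver but did not pass. It was at 10.14, 10.67 and 8.15 in Abcb11-/- livers, against 7.37, 8.09 and 8.93 in WT livers, so that the groups overlapped and both spread widely (SD 1.33 in Abcb11-/- livers and 0.78 in WT livers, n = 3 each). The SE, moderated by limma with the variance of other genes, does not follow from these SDs alone. The log2 fold change was 1.52 ± 0.65 (SE), with a limma adjusted p of 0.23. Without Abcb11-/- replicate 3, its lowest array, the log2 fold change was 2.28 with a limma adjusted p of 0.042. Leaving out any other single array gave log2 fold changes of 1.015 to 1.92, with limma adjusted p of 0.23 to 0.48. Fos ran alongside, at 6.29, 6.59 and 4.78 in Abcb11-/- livers and at 3.83, 4.58 and 5.72 in WT livers, a log2 fold change of 1.18 ± 0.58 (SE) with a limma adjusted p of 0.30. The same Abcb11-/- array was lowest, and the same WT array highest, for both genes.

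Dusp6 was at 8.05, 8.35 and 7.85 in Abcb11-/- livers, against 8.60, 8.23 and 9.03 in WT livers, a log2 fold change of -0.54 ± 0.21 (SE) with overlap and a limma adjusted p of 0.20. Dusp4 was at 2.75 to 2.97 in Abcb11-/- livers and at 2.85 to 2.98 in WT livers, below the liver array medians of 3.15 to 3.18. Spry2 was at 4.34 to 4.61 in Abcb11-/- livers and at 4.30 to 4.49 in WT livers, a log2 fold change of 0.02 ± 0.11 (SE).

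Spry1 was at 5.71, 5.55 and 5.22 in Abcb11-/- livers, against 4.88, 5.09 and 4.62 in WT livers. Every Abcb11-/- array lay above every WT array, the log2 fold change was 0.63 ± 0.16 (SE), and the limma adjusted p of 0.062 did not pass.

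Spred1 was at 5.13, 5.36 and 5.64 in Abcb11-/- livers and at 6.05, 5.87 and 5.92 in WT livers, without overlap. The log2 fold change was -0.57 ± 0.14 (SE), and its limma adjusted p of 0.0504 was just above the threshold. All 5 of its probe sets were lower in Abcb11-/- livers, by -0.27 to -1.57, and 2 of the dimmer ones passed on their own (limma adjusted p of 0.013 and 0.017). Spred2 was at 6.31, 6.30 and 6.74 in Abcb11-/- livers, against 6.97, 6.98 and 6.78 in WT livers. Its log2 fold change was -0.46 ± 0.14 (SE), with a limma adjusted p of 0.097. Without Abcb11-/- replicate 3, the array nearest to WT for both genes, the limma adjusted p was 0.030 for Spred1 and 0.035 for Spred2, at log2 fold changes of -0.70 and -0.61. Neither gene passed on leaving out any other single array, with limma adjusted p of 0.076 to 0.16 for Spred1 and 0.15 to 0.27 for Spred2.

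**Figure D3:**
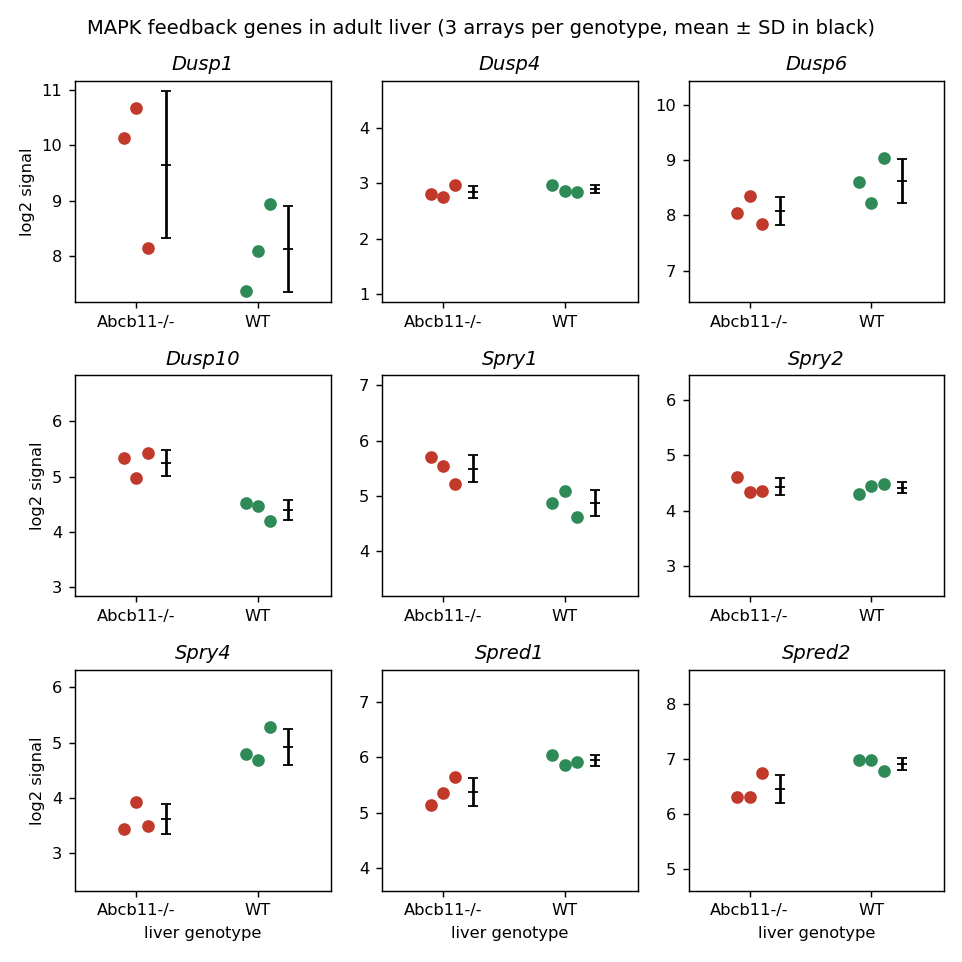
Log2 signal (y axis, every panel spanning the same height) of the 9 measured MAPK feedback genes on each liver array, Abcb11-/- in red and WT in green, with the mean ± SD (n = 3) in black. Spry4 is lower on all 3 Abcb11-/- arrays and Dusp10 higher on all 3, while the Dusp1 groups overlap through the Abcb11-/- array at 8.15 and the WT array at 8.93.

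**Figure D4:**
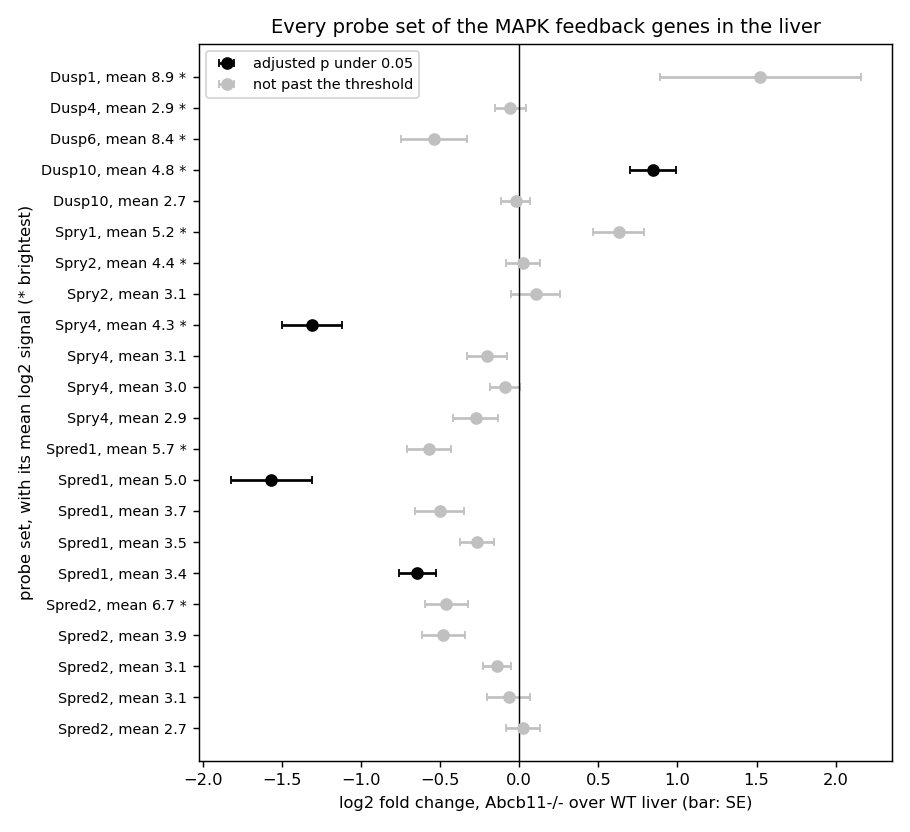
Log2 fold change of Abcb11-/- over WT liver with its SE (x axis) for each of the 22 probe sets (y axis, with the mean log2 signal, and a star at the one that stands for its gene), black where the limma adjusted p over all probe sets is under 0.05. All 5 Spred1 probe sets lie below 0, from -0.27 to -1.57, and the 3 dimmer Spry4 probe sets lie nearer to 0 than the bright one at -1.31.

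The counts elsewhere in the cascade stand beside 4.33% of all genes called higher and 2.91% called lower in Abcb11-/- livers. Of 11 other MAPK phosphatases and dual-specificity phosphatases 1 rose, Dusp14, at a log2 fold change of 0.87 ± 0.17 (SE) and a limma adjusted p of 0.023. None of 15 other inhibitors of receptor and Ras signalling passed. Among ligands of the epidermal growth factor receptor, Hbegf was at 6.39, 5.67 and 6.93 in Abcb11-/- livers, against 3.56, 3.63 and 3.35 in WT livers. Btc, a second such ligand, was at 5.48, 4.80 and 4.98 in Abcb11-/- livers, against 3.27, 3.52 and 3.33 in WT livers. Both rose, by 2.82 and 1.71 on the log2 scale (limma adjusted p of 0.0021 and 0.0022). Fgf1 (-0.97) and Vegfa (-0.44), growth factors of other receptors, fell, with limma adjusted p of 0.015 and 0.034, so that 2 of 29 receptors and ligands rose and 2 fell. Of 21 ERK cascade kinases and adaptors 1 rose, the small GTPase Rras (1.09, limma adjusted p of 0.0016), and of 20 JNK and p38 cascade kinases 2 rose, Map3k1, which feeds the JNK branch (1.26, 0.0070), and Mapkapk2, a kinase downstream of p38 (0.58, 0.048). Of 16 ERK-induced transcripts 3 rose and none fell, namely Epha2 (1.12, 0.0052), Klf6 (1.08, 0.041) and Nr4a1 (0.71, 0.043).

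Neutrophil markers moved with genotype in the same livers. Of 8 measured, 4 were called higher, where 4.33% of all genes were, and their summed signal was 642 to 1426 in Abcb11-/- livers and 132 to 424 in WT livers. Of 5 cholangiocyte markers 2 were called higher, with summed signals of 71 to 107 in Abcb11-/- livers and 47 to 56 in WT livers. Of 7 cell cycle markers none was called, with summed signals of 689, 122 and 122 in Abcb11-/- livers and 146, 75 and 100 in WT livers, so that Abcb11-/- replicate 1 alone stood above the WT range. Their part in the feedback gene values was not tested.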

How the data were processed

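RNA from lung and liver tissue was hybridized to Affymetrix mouse HT MG-430 PM plate arrays. The authors deposited log2 values made by RMA (robust multiarray averaging). Partek 6.5 is named in the submitters' processing notes. Lung arrays had medians of 3.63 to 3.68 and liver arrays of 3.15 to 3.18, and the tissues were therefore tested apart. The values carry no detection call, and the number of arrays limits precision.

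Of 45037 probe sets, 28898 had 1 gene name, 551 several and 15588 none in the platform annotation, and 28689 were matched to the current annotation by gene number. Liver genotype was tested in R 4.3.3 by limma 3.58.1 (lmFit, then eBayes, 2-sided, Benjamini-Hochberg over 17097 genes, with 4 residual degrees of freedom). The labels number the livers without saying that they came from separate litters or days. Where separate animals are not stated, p-values measure only the spread between these arrays. Limma moderates that spread with the variance of all genes, and every SE given is such a moderated SE. Lung differences were counted at 1.5-fold where the brighter array reached a log2 value of 6. The fits were run on simulated data to check for bias and false calls. Recovery of changed genes was required of the liver fit alone. The check therefore does not show that the lung fits could find a change.

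The named genes are all 10 feedback genes, up to 4 genes per pathway list called in the liver and up to 4 past 1.5-fold at PN0, Abcb11, and the 3 genes most like each feedback gene that ranged over at least 1 in the lung. The feedback genes and the lists were chosen with earlier results of these data known. Alternatives were averaged probe sets, each probe set alone, a minimum mean of 6, other brightness minimums, 2-fold, quantile normalization, median centring, a trended and robust prior, a replicate block, leaving out each liver array or lung stage, and the methods' t-test.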

Additional observations from a re-analysis of the deposited data

Results flagged for a closer look

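Dusp1 and Dusp4 were each more than 1.5-fold higher with an Abcb11-/- mother at PN0 and lower at E18.5. They were picked for a PN0 difference past 1.5-fold and the opposite sign at E18.5, whatever its size. A gap between the stages therefore follows from the choice. Dusp4 was below the brightness minimum on both E18.5 arrays, and at PN0 it passed only through the array of the Abcb11-/- mother. For Dusp1 the difference by mother was 0.97 at PN0 and -0.23 at E18.5, so that they lay 1.20 apart on the log2 scale. For Dusp4 it was 1.00 at PN0 and -0.15 at E18.5, which lay 1.15 apart. PN0 was not tested against E18.5 alone, since each value comes from 1 array. Against both fetal stages, which include the E17.5 array with hepatocyte and skeletal muscle markers, the limma adjusted p was 0.96 for Dusp1 and 0.97 for Dusp4, with 1 residual degree of freedom. Without that array no residual degree of freedom is left, so the test has no value there.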

How the results depend on the processing

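In the liver, the 1 feedback gene called higher became 0 with averaged probe sets, 0 under a minimum mean of 6 (3 genes then tested, with Dusp10 and Spry4 left out), 0 to 1 on leaving out 1 array, and 2 and 0 by the methods' t-test without and with Benjamini-Hochberg adjustment. The 1 called lower became 2 with averaged probe sets, 0 under that minimum, 2 with quantile normalization, 1 to 3 on leaving out 1 array, and 3 and 0 by the methods' t-test. All genes called numbered 315 to 888 higher and 177 to 621 lower on leaving out 1 array, and 1685 and 1444 by the methods' t-test, or 26 and 23 after adjustment. Same-numbered livers did not deviate together (r of -0.045, -0.041 and -0.135) and share only a number. With the number as a replicate block, 0 feedback genes were called higher and 1 lower, of 429 and 242 genes in all. Spry4 kept its limma call in the 11 settings that tested its brightest probe set or the mean of its probe sets, with adjusted p of 0.0035 to 0.038. Its log2 fold change was -0.47 with averaged probe sets, against -1.31 on the brightest, and none of its dimmer probe sets passed alone.

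Liver values that changed sign were those of Spry2 (-0.0561 with quantile normalization, and -0.0633 to 0.0717 on leaving out 1 array, below 0 without WT replicate 1 or Abcb11-/- replicate 1), of Dusp10 on its dim probe set (-0.0233) and of Spred2 on its dimmest (0.0233). Of 96 alternative lung values, 16 had the other sign (4 of 31 at E17.5, 7 of 31 at E18.5 and 5 of 34 at PN0). None concerned a gene and stage that was 1.5-fold apart on the brightest probe set. Of those genes, Dusp1, Dusp4 and Dusp6 have 1 probe set each, so the choice of probe set could not change their sign. The values of the other sign included Spry2 at E18.5, at 0.30 with averaged probe sets and 0.71 on its dimmer probe set, against -0.10 on the brightest. The others came from single dimmer probe sets of Spry2, Spry4, Spred1 and Spred2 or, for Spry1 and Spry4 at E17.5, from quantile normalization. A 2-fold threshold left 0 feedback genes apart at PN0, where 1.15% of all genes were higher and 0.69% lower, and 0 at E18.5, where 0.187% and 0.0801% were. It left 1 higher for the birth step with a WT mother, where 2.08% were higher and 1.96% lower. A minimum of 7, which Dusp4 did not reach, left 2 of 7 feedback genes higher at PN0, where 3.36% of all genes were higher and 2.88% lower. Averaged probe sets left 2 of 6 higher at PN0, where 249 of 5531 genes were higher and 173 lower. A minimum of 7 left 1 higher for the birth step with an Abcb11-/- mother, where 3.34% were higher and 2.05% lower. A trended and robust prior called 1 feedback gene, Dusp1, in the test of PN0 against the fetal stages (limma adjusted p of 0.034), and 28 of 17097 genes in all, against 0 and 0 with the ordinary prior. Where the change does not follow from fewer genes tested or fewer arrays, the cause was not tested. In the liver, Dusp4 and several second probe sets lay below or near the array median.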
